A study of Mus musculus with 14 samples.

Results

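Cytosolic ribosomal protein genes encode the proteins that, with ribosomal RNA, build the 60S and 40S subunits of the cytosolic ribosome. They were examined by RNA-seq in quadriceps muscle of 4-month-old male C57BL/6 mice, in HDAC3 knockout (KO) and HDAC3 wild-type (WT) muscle, with 3 libraries of each genotype. Both genotypes were sampled at rest at ZT10 (10 hours after lights on), on normal chow and a normal light and dark schedule, with no specific treatment. HDAC3 is a histone deacetylase that works in nuclear corepressor complexes. The sources used here do not say how HDAC3 was removed or from which cells. Nor do they say that the replicates were separate animals, so p-values measure only the spread between these libraries. The genes were chosen by symbol from the authors' deposited table: Rpl or Rps followed by a number, at most 1 letter and any further digits, together with Rplp0, Rplp1, Rplp2 and Rpsa. That gave 84 of 24354 genes, of which 51 are named for the 60S subunit and 33 for the 40S subunit, and the rule itself uses no measured value. The symbols also take in paralogues, such as Rpl3l and Rpl22l1, that can stand in for the standard protein or whose place in the ribosome is less settled. Fau, which encodes a ribosomal protein as a fusion with a ubiquitin-like protein, falls outside the naming and was read beside the set.

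Ribosomes carry most of their proteins in equal number, and cells keep the supply of these proteins matched to that of ribosomal RNA. In mammals most ribosomal protein mRNAs begin with a C followed by an unbroken run of pyrimidines, the 5′ terminal oligopyrimidine (TOP) motif, through which mTOR signalling and the RNA-binding protein LARP1 set how actively they are translated. In muscle, ribosome supply is one of the limits on protein synthesis and growth, and skeletal and heart muscle also express Rpl3l, a paralogue of the core 60S protein gene Rpl3.

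The start of these genes is where the TOP run lies, so 7 members whose annotated start falls in such a run are shown. Rpl38, Rplp2, Rps21, Rps27 and Rps6 recur in the results below, and Rpl35 and Rps18 have long runs. Shown beside them are Rps2, the only member called in the authors' deposited table, and Rpl3l, the muscle paralogue, which was called by neither method. Each line gives 50 bases of the sense strand, 25 before the annotated start and 25 from it on, from RefSeq on GRCm38.p6. Capitals mark the C at the start and the C or T bases that follow it without a break. The starts of Rps2 and Rpl3l have no such run and no capitals. The FPKM values come from another build, mm9, and were joined to these sequences by symbol only.
Rpl38 (chr11:114668555-114668604, plus strand): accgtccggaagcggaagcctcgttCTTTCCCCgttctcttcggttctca
Rplp2 (chr7:141447626-141447675, plus strand): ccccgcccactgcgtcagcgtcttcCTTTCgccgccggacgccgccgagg
Rps21 (chr2:180257354-180257403, plus strand): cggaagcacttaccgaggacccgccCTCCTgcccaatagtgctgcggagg
Rps27 (chr3:90213624-90213673, minus strand): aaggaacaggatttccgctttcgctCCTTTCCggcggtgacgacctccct
Rps6 (chr4:86857343-86857392, minus strand): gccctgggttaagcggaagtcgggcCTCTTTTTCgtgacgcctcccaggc
Rpl35 (chr2:39005107-39005156, minus strand): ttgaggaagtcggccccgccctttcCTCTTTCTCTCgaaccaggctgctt
Rps18 (chr17:33955641-33955690, minus strand): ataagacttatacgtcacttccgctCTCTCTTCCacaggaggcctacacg
Rps2 (chr17:24720038-24720087, plus strand): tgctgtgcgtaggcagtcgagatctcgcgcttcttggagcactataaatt
Rpl3l (chr17:24727801-24727850, plus strand): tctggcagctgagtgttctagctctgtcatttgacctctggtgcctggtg

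A C followed by at least 4 C or T bases exactly at the annotated start was present in 13 of 61 members with a promoter sequence and enough expression to be tested (21.3%), and in 3.03% of 7959 other genes. In the whole 300-base promoter, CTCTTTC stood on either strand in 29.5% of members and 8.38% of other genes, and CCGGAAG in 41.0% of members and 20.9% of other genes. These 3 patterns are what was kept, with their shares already seen, from a search of 14 letter motifs on both strands and 5 lengths of pyrimidine run within 10 bases of the start. Of the 14 motifs, which overlap one another, 13 were more frequent in members and 1 (CACGTG, the E-box letters) was not, at 9.84% of members and 12.3% of other genes. An annotated start can lie a few bases from the start used in muscle, so a start outside a run says only that the letters are not at that position. The 13 members with a run at the start had a median log2 fold change, KO over WT, of 0.12, and the other 48 members with a promoter had 0.11.

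Levels are in FPKM, a fragment count divided by gene length and by library size. FPKM sums were 464777 to 495099 in KO libraries and 454359 to 484510 in WT libraries. Read numbers are not in the table. Relative depth, read from the steps between the lowest values, was 0.660 to 0.832 times that of WT replicate 1 in KO libraries and 0.831 to 1.02 times in WT libraries. Hdac3 stood at 5.51, 6.29 and 8.16 FPKM in KO and at 33.3, 31.0 and 23.7 FPKM in WT, so every KO library lay below every WT library. Muscle markers (Acta1, Ckm, Myh4, Myh1, Tnnt3 and Mb) summed to 43688 to 53157 FPKM in KO and 44213 to 54983 FPKM in WT. Of 8 further lists of 6 markers each for other cell types, none had a gene called between the genotypes, where 3.65% of all genes tested were. Many of these markers were too low to test. The macrophage, endothelial and fibroblast lists had 6 genes tested, neutrophil and adipocyte 4, erythroid 3, satellite cell 2 and lymphocyte 1. The neutrophil list summed to 3.39 to 7.41 FPKM in KO and 5.54 to 529 FPKM in WT, with the highest sum in WT replicate 2. The satellite cell list summed to 2.98 to 4.71 FPKM in KO and 6.01 to 7.69 FPKM in WT, which did not overlap. The part of these differences in the results below was not tested. In whole muscle, fewer cells of a type and less RNA per cell cannot be told apart.

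Ribosomal protein mRNAs were among the abundant mRNAs of this muscle. Of the 84 genes, 81 had a mean of at least 1 FPKM over the 6 libraries and entered the tests, and their median level was 253 FPKM (quartiles 159 and 392), against 6.63 FPKM for all 10501 genes tested. A level of 100 FPKM or more was reached by 72 of these 81, and by 5.53% of all genes tested. Together the members made up 5.20%, 4.61% and 4.81% of the FPKM sum in KO replicates 1 to 3, and 4.33%, 4.54% and 5.11% in WT replicates 1 to 3. The 60S members held 2.98%, 2.63% and 2.74% in KO and 2.44%, 2.57% and 2.92% in WT. The 40S members held 2.22%, 1.98% and 2.07% in KO and 1.89%, 1.97% and 2.19% in WT. The genotypes overlapped in all 3 shares, because WT replicate 3 stood above KO replicates 2 and 3.

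**Figure D1:**
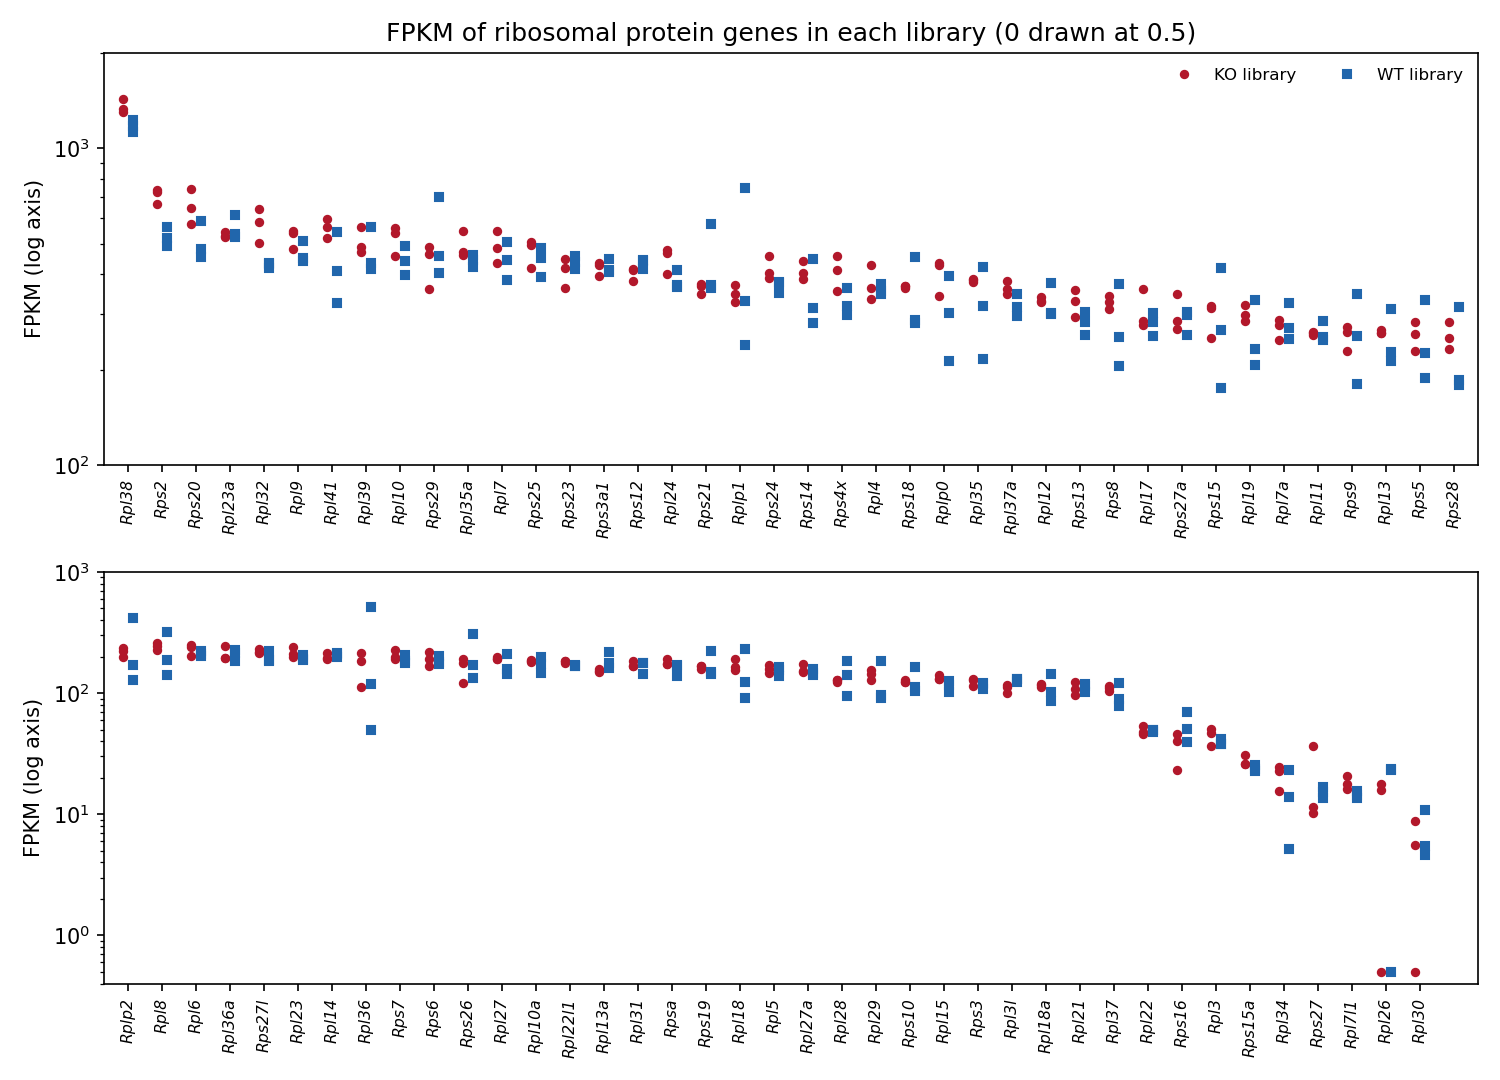
Levels of individual members tested, in each KO and WT library, in FPKM on a log axis with 0 drawn at 0.5, ordered by mean level. Most members average 100 FPKM or more, and a few, such as Rpl30, lie far below.

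**Figure D2:**
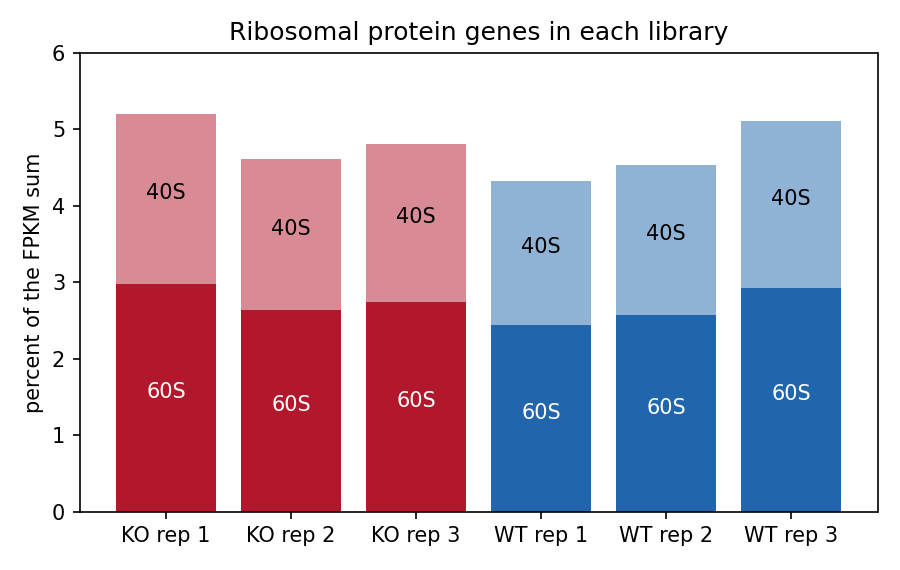
Share of the FPKM sum held by the 60S and 40S members, in percent, in each KO and WT library. The shares in WT replicate 3 lie above those in KO replicates 2 and 3, so the genotypes overlap.

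Levels per kilobase differed widely between the members tested, although ribosomes need about equal numbers of most of these proteins. The highest was Rpl38, a small 60S protein gene, at 1429, 1331 and 1305 FPKM in KO and 1174, 1126 and 1231 FPKM in WT. Rps2, Rps20 and Rpl23a were also among the 5 highest. Rps20 encodes a 40S protein, Rps2 encodes a 40S protein near the mRNA entry channel, and Rpl23a encodes a 60S protein near the exit of the nascent chain. The lowest 5 members tested, with a value listed at 0 taken as 0, were Rpl30, Rpl26, Rpl7l1, Rps27 and Rpl34. Many members have pseudogenes, and RefSeq on GRCm38.p6 names 320 of them for 64 of the 84 genes, led by Rpl31 with 24 and Rps12 with 23. The sources used here do not say how the authors' counting treated reads that fit several copies, so levels of members with near-identical copies are uncertain.

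The question put to the genotypes was whether loss of HDAC3 changed the mRNAs of the ribosome. No member was called at an adjusted p under 0.05 by limma on log2(FPKM + 1), with Benjamini-Hochberg adjustment over all 10501 genes. Members called higher in KO were 0 of 81, where 2.30% of all genes were, and members called lower were 0 of 81, where 1.34% of all genes were. In either direction, 3.65% of all genes were called. At an unadjusted p under 0.05, 7 members passed, 6 of them higher and 1 lower in KO (8.64% of members, against 19.7% of all genes). Of 509 other genes of 100 FPKM or more, 164 passed. The count of members moved with single libraries. Without WT replicate 3 it was 28 (34.6% of members, against 18.9% of all genes in the same refit). It was 3 without KO replicate 1 (3.70% against 16.7%), 2 without KO replicate 3 (2.47% against 15.3%) and 3 without WT replicate 2 (3.70% against 14.2%). In these refits the other genes of 100 FPKM or more were not counted apart. By the authors' deposited table, Rps2 alone (1 member, higher in KO) had a q-value under 0.05. Of the 9204 genes with a deposited p-value under 1, 10.8% did so, 5.90% higher and 4.94% lower in KO.

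Most members nonetheless lay slightly higher in KO. The sign was positive for 60 of 81 (74.1%), against 50.3% of all genes tested, and the median log2 fold change was 0.11 for 60S members, 0.11 for 40S members and 0.00 for all genes. Other genes of 100 FPKM or more shifted by a like amount: of 509 such genes, 66.4% were higher in KO and their median was 0.12. Of those 509 genes, 36 were called higher and 7 lower (8.45% called in all). With each library scaled to the same upper quartile or to the same FPKM sum, 55 of the 81 members were higher. The median log2 ratio of group means over members was 0.11, and it was 0.07 without KO replicate 1 and 0.17 without WT replicate 3.

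Changes of individual members were small. Over the 79 members tested that were above 0 in every library, the ratio of the KO mean to the WT mean ran from 0.688 for Rps16 to 1.49 for Rpl34. For 53 of 81 members the 95% interval of the limma fold change stayed within 1.5-fold in both directions, as it did for 5761 of the 10501 genes. Over all genes, a change of that size was hard to detect. In simulated data with 3 libraries per group, limma called 16% of genes changed 1.5-fold and 68% of genes changed 2-fold. Those genes were drawn from all 10501, and the rate for members was not simulated. The median coefficient of variation was 8.61% in KO and 11.1% in WT for members, against 13.2% and 13.9% for all genes. For other genes of 100 FPKM or more it was much as for members, at 8.38% in KO and 11.1% in WT. All 3 KO libraries lay above all 3 WT libraries for 12 members (14.8%, against 14.2% of all genes). All 3 lay below for Rpl3l, Rpl13a and Rps12 (3 members, where 11.9% of all genes did so). Of 509 other genes of 100 FPKM or more, 149 (29.3%) lay above in this way and 41 below.

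**Figure D3:**
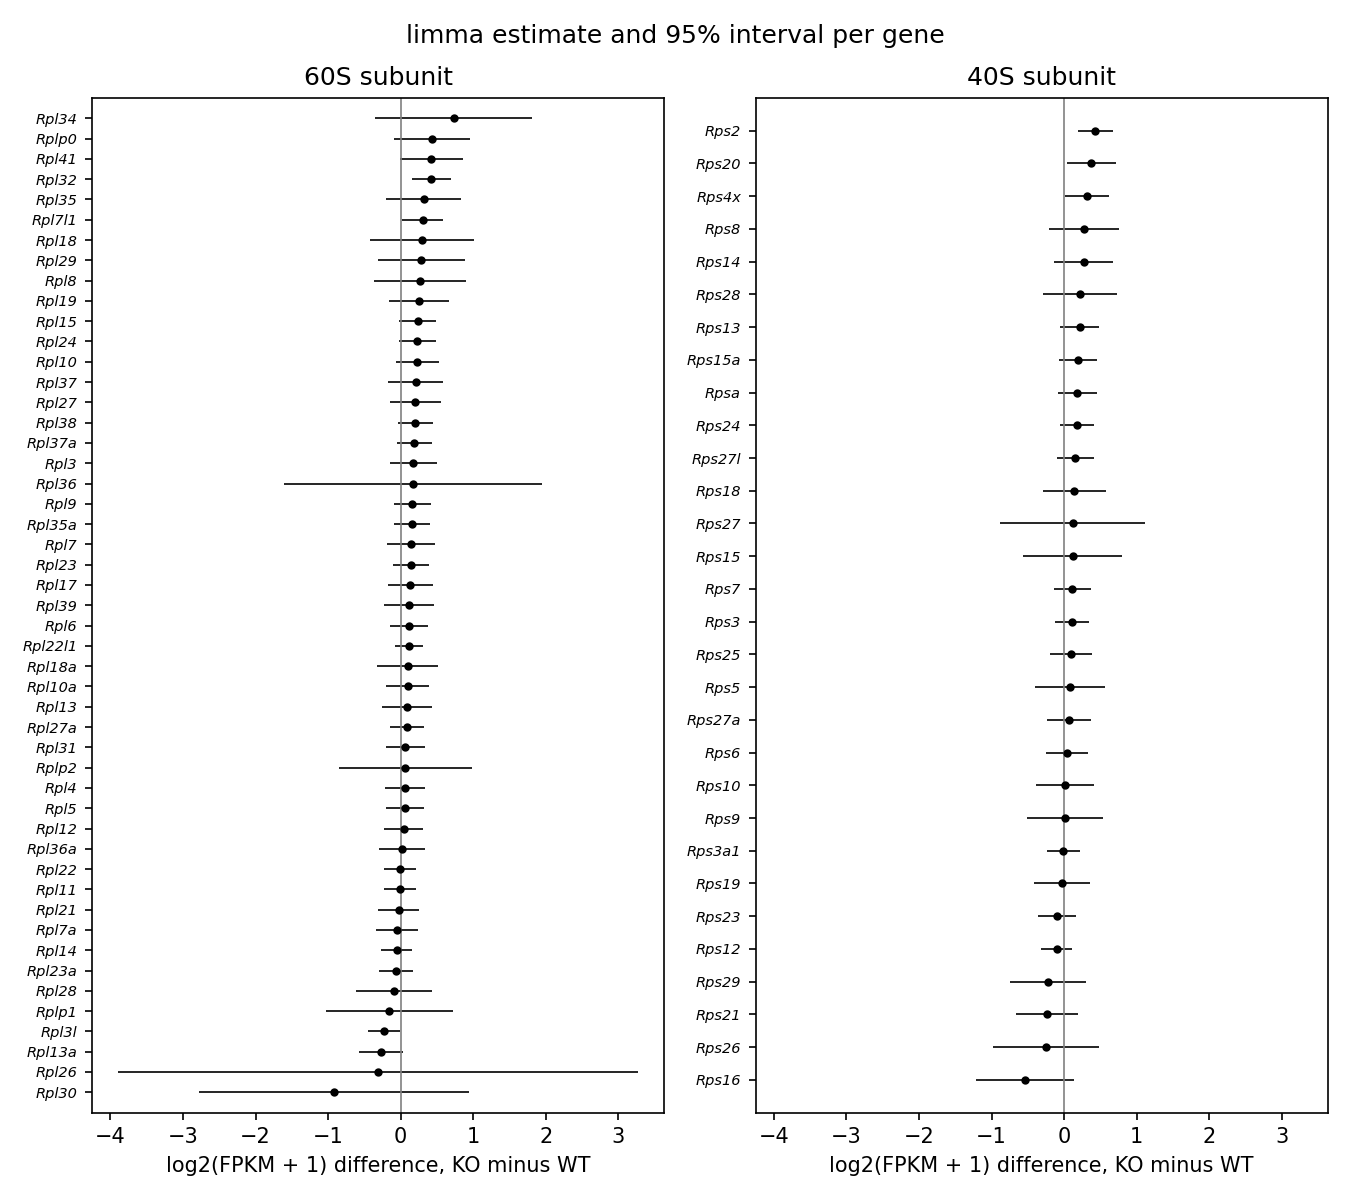
Log2 fold change, KO over WT, of individual members tested, by subunit, with its 95% interval from limma on log2(FPKM + 1). Points cluster just above 0, Rps2 and Rpl32 stand among the highest with intervals above 0, and Rpl26 and Rpl30 have the widest intervals.

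Rps2 encodes a 40S protein close to the mRNA entry site, and its sequence is shown above. It stood at 665, 736 and 727 FPKM in KO and at 490, 522 and 566 FPKM in WT, so the genotypes did not overlap. The log2 fold change was 0.43 (95% interval 0.19 to 0.67), with a limma adjusted p of 0.0704 and a q-value of 0.043 in the authors' deposited table. Its call thus differed between the 2 methods.

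Rpl32, a 60S protein gene, stood at 642, 501 and 586 FPKM in KO and at 435, 430 and 420 FPKM in WT. The genotypes did not overlap, and the WT libraries lay within a narrow range. The log2 fold change was 0.42 (limma adjusted p = 0.101). Rpl7l1, a paralogue of Rpl7 linked to early 60S assembly, stood at 20.8, 16.2 and 17.7 FPKM in KO and at 14.4, 15.7 and 13.5 FPKM in WT (limma adjusted p = 0.223). Its groups were close without overlapping.

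Rps20 and Rps4x, both 40S protein genes, overlapped between the genotypes. Rps20 stood at 746, 578 and 645 FPKM in KO and at 479, 452 and 590 FPKM in WT (limma adjusted p = 0.212). Rps4x, the X-linked gene of its protein, stood at 456, 355 and 411 FPKM in KO and at 362, 318 and 298 FPKM in WT (limma adjusted p = 0.231). In each, KO replicate 1 was the highest library and 1 WT library exceeded the lowest KO library.

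Rpsa, the laminin receptor precursor that is also a 40S protein, stood at 172, 173 and 191 FPKM in KO and at 137, 171 and 166 FPKM in WT (limma adjusted p = 0.440). Every KO library lay above every WT library, but KO replicate 1 and WT replicate 2 were nearly level. Rps6, the 40S protein phosphorylated by S6 kinases downstream of mTOR, stood at 219, 167 and 190 FPKM in KO and at 202, 181 and 175 FPKM in WT (limma adjusted p = 0.912). Its groups overlapped, and the sign of its log2 fold change of 0.04 turned under upper quartile scaling and under scaling to the FPKM sum.

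Rpl5 and Rpl11, whose proteins bind 5S RNA and can hold the p53 regulator MDM2 in check, differed little. Rpl5 stood at 172, 145 and 158 FPKM in KO and at 163, 156 and 137 FPKM in WT (limma adjusted p = 0.819). Rpl11 stood at 260, 262 and 257 FPKM in KO and at 247, 253 and 285 FPKM in WT (limma adjusted p = 0.983). Both overlapped, and the 95% intervals of their log2 fold changes ran from -0.20 to 0.32 for Rpl5 and from -0.23 to 0.22 for Rpl11. Rpl10, whose protein joins the 60S subunit late in its assembly, stood at 559, 458 and 542 FPKM in KO and at 441, 398 and 493 FPKM in WT, also with overlap (limma adjusted p = 0.377).

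Among members with lower values in KO, Rpl3l stood at 112, 118 and 100 FPKM in KO and at 131, 132 and 124 FPKM in WT. The genotypes did not overlap, the log2 fold change was -0.23, and the limma adjusted p was 0.247. Rpl13a, a 60S protein gene also known for a role in interferon-gamma-driven translation control, stood at 158, 150 and 152 FPKM in KO and at 160, 178 and 220 FPKM in WT (log2 fold change -0.27, limma adjusted p = 0.313). KO replicate 1 and WT replicate 1 were close, and WT replicate 3 was the highest library. Rps16, a 40S protein gene, stood at 23.4, 46.2 and 40.6 FPKM in KO and at 70.1, 39.6 and 50.5 FPKM in WT (limma adjusted p = 0.353). It overlapped, and KO replicate 1 was lowest and WT replicate 1 highest. Rps21, also a 40S protein gene, had a log2 fold change of -0.23 (limma adjusted p = 0.537), and its groups overlapped.

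The spread between WT libraries was wide for a subset of members. The highest WT library was at least 2 times the lowest in 11 members (13.6%), against 11.2% of other genes and 9.04% of other genes of 100 FPKM or more. The KO libraries spread that far in 3 members (3.70%), against 10.2% of other genes and 5.50% of other genes of 100 FPKM or more. WT replicate 3 was the highest of all 6 libraries in 32 members (39.5%, against 20.7% of other genes) and WT replicate 1 was the lowest in 32 (39.5%, against 17.3%). KO replicate 1 was the highest in nearly as many, 31 members (38.3%, against 17.7% of other genes). WT replicate 3 was highest and WT replicate 1 lowest at once in 24 members (29.6%), against 5.78% of other genes. WT replicate 3 exceeded WT replicate 1 by more than 1.5-fold in 26 members (32.1%), against 10.4% of other genes, and the reverse held in 2 members.

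**Figure D4:**
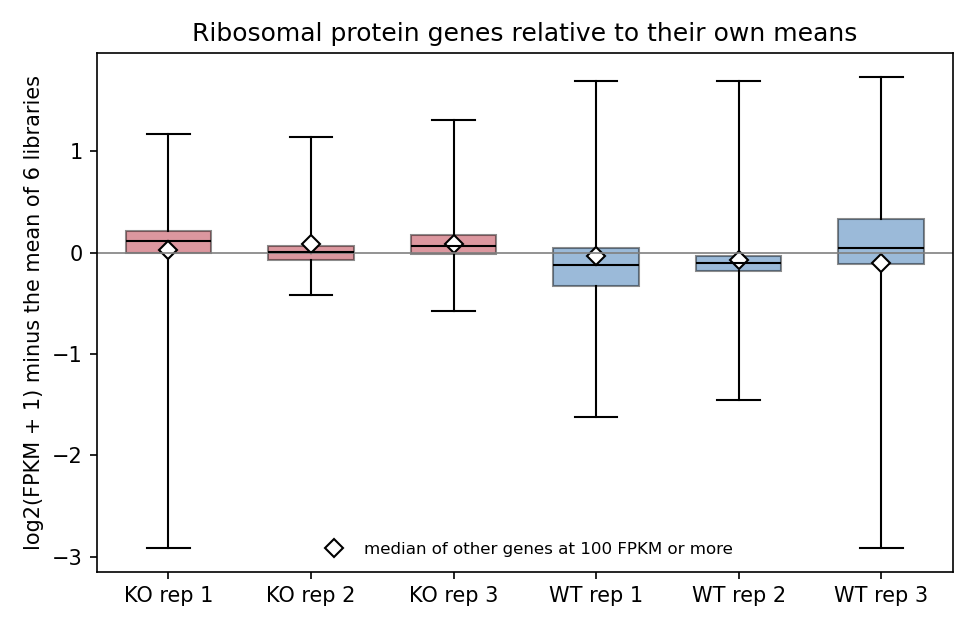
Deviation of each member from its mean over the 6 libraries, as log2(FPKM + 1), in each KO and WT library. Boxes span the quartiles, whiskers the full range, and diamonds give the median of other genes of 100 FPKM or more. WT replicate 3 has the highest upper quartile, KO replicate 1 the highest median (0.11), and WT replicate 1 the lowest median.

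The widest case, named after its values were seen, was Rpl36, a 60S protein gene, at 112, 214 and 183 FPKM in KO and 49.4, 120 and 517 FPKM in WT. WT replicate 3 was 10.5 times WT replicate 1, and all KO libraries lay between these 2. Of the stalk genes, Rplp1 and Rplp2 had the same highest and lowest libraries as Rpl36 and Rplp0 did not. The stalk is the flexible arm of the 60S subunit that recruits the GTPase factors of translation, built on Rplp0 by pairs of Rplp1 and Rplp2 proteins. Rplp1 stood at 328, 347 and 369 FPKM in KO and at 238, 328 and 748 FPKM in WT (limma adjusted p = 0.862). Rplp2, whose promoter has a 5-base run at its start, stood at 198, 223 and 236 FPKM in KO and at 129, 169 and 418 FPKM in WT (limma adjusted p = 0.954). Rplp0 stood at 340, 427 and 433 FPKM in KO and at 212, 303 and 394 FPKM in WT (limma adjusted p = 0.336). The highest library was WT replicate 3 for Rplp1 and Rplp2, and KO replicate 3 for Rplp0. In all 3 genes WT replicate 1 was lowest and the KO libraries lay within a narrower range than the WT libraries. Without WT replicate 3 the log2 fold change was 0.31 for Rplp1 and 0.56 for Rplp2, against -0.16 and 0.06 with all 6 libraries.

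The 3 members left out of the main fit were paralogues at very low levels. Rps4l, a paralogue of Rps4x, stood at 0.331, 0.525 and 0.324 FPKM in KO and at 0.874, 2.10 and 1.71 FPKM in WT. Its KO libraries all lay below its WT libraries, but its mean fell just short of 1 FPKM, so it was left out of the main fit. It entered only the refit with no filter on low values. There 8 of 83 members had an unadjusted p under 0.05 (9.64%, against 14.9% of all genes), and no member was called. Rps4x lay at 298 FPKM or more in the same libraries. Rpl39l, known from testis, was listed at 0 in KO replicate 1 and at 0.646 and 0.798 FPKM in the other 2 KO libraries. In WT it was listed at 0 in replicates 1 and 3 and at 0.647 FPKM in replicate 2. Rpl10l, a testis-expressed retrogene copy of Rpl10, was listed at 0 in all 6 libraries.

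Where a standard gene and a paralogue are both expressed, the paralogue had the higher FPKM in 3 pairs. Rpl3l made up 68.8%, 76.4% and 68.2% of the Rpl3 and Rpl3l sum in KO and 77.5%, 76.0% and 76.7% in WT. KO replicate 2 fell within the WT range while KO replicates 1 and 3 lay below it, so the genotypes overlapped. Rpl3 itself stood at 50.8, 36.3 and 46.6 FPKM in KO and at 37.9, 41.5 and 37.7 FPKM in WT (limma adjusted p = 0.539). By mean FPKM, Rpl22l1, the paralogue of the 60S protein gene Rpl22, stood at 3.59 times Rpl22. Rps27l, a paralogue known as a p53 target, stood at 12.1 times Rps27, which is among the 5 lowest members. RefSeq names 2 pseudogenes for Rps27, 2 for Rpl3 and 1 for Rpl22. The authors' deposited table also lists Rps27rt, named as a copy of Rps27 but outside the naming rule. Its level was not added to that of Rps27, so the Rps27 value may be only part of what the standard gene and its copy give. How reads shared with such copies were counted is not known, so these ratios are uncertain, most of all that of Rps27. Rpl22l1 stood at 178, 185 and 183 FPKM in KO and at 169, 167 and 170 FPKM in WT, which did not overlap (limma adjusted p = 0.508). Rps27l stood at 233, 217 and 213 FPKM in KO and at 224, 184 and 188 FPKM in WT, which overlapped (limma adjusted p = 0.483). In the Rpl7 pair the standard gene led instead, at 28.5 times the level of Rpl7l1.

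**Figure D5:**
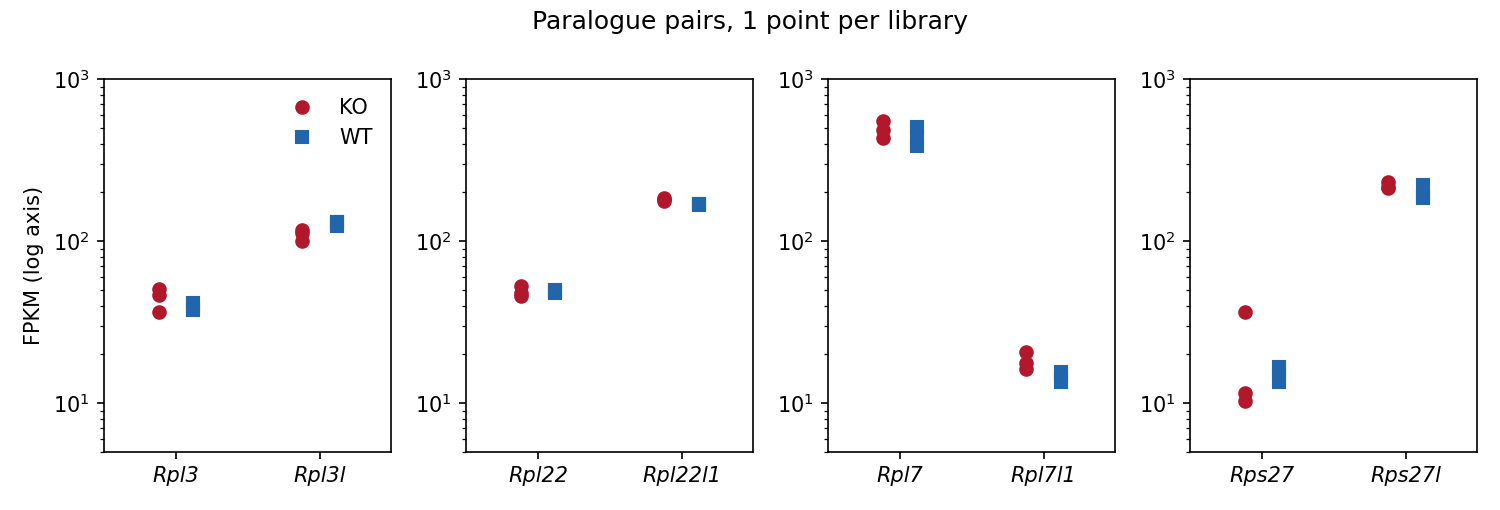
FPKM on a log axis of 4 pairs of a standard gene (left of each panel) and its paralogue (right), with 1 point per library, KO beside WT. Rpl3l, Rpl22l1 and Rps27l lie above their standard gene in every library of both genotypes, and Rpl7l1 lies below Rpl7.

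The lowest members had the least certain values. Rpl26, a 60S protein gene, was listed at 0 in KO replicate 1 and at 15.7 and 17.7 FPKM in the other 2 KO libraries, and at 23.4, 23.5 and 0 FPKM in WT. Rpl30, another 60S protein gene, was listed at 0, 8.83 and 5.59 FPKM in KO and stood at 10.9, 4.64 and 5.50 FPKM in WT. Both encode proteins of every ribosome and yet were listed at 0 in a library, so no mean is given for either. Rps27, whose start has a 7-base run, stood at 36.7, 11.5 and 10.2 FPKM in KO and at 16.7, 15.2 and 13.5 FPKM in WT, with KO replicate 1 apart from the rest. Rpl34, a 60S protein gene, stood at 22.9, 24.6 and 15.5 FPKM in KO and at 13.9, 5.14 and 23.2 FPKM in WT. All 4 overlapped between the genotypes, and their limma adjusted p lay between 0.437 and 0.943.

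The fusion gene Fau was not called. It stood at 98.4, 117 and 112 FPKM in KO and at 78.8, 107 and 162 FPKM in WT (limma adjusted p = 0.965). WT replicate 3 was highest and WT replicate 1 lowest, as in Rplp1 and Rplp2.

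Genes that make and use ribosomes were read in 7 lists, against 2.30% of all genes called higher and 1.34% called lower by limma, and 19.7% at an unadjusted p under 0.05. The lists share genes, so their counts are not independent. For example, Eef2 and Eif3f are in the list of other TOP transcripts and also among the elongation and initiation factors. Of 9 elongation factors tested, 22 other TOP transcripts, 17 genes of RNA polymerase I and its factors, and 9 genes of ribosome stress and rescue, none was called by limma in either direction. At an unadjusted p under 0.05 these lists held 0, 3, 5 and 2 genes, and by the authors' deposited table Polr1d, a subunit shared by RNA polymerases I and III, was called lower in KO (q-value 0.044). Of 37 initiation factors, 2 were called higher and 0 lower and 13 had an unadjusted p under 0.05, with a median log2 fold change of 0.18 over the list, against 0.00 for all genes. Of 68 ribosome assembly genes, 3 were called higher and 0 lower, and 11 had an unadjusted p under 0.05 (median 0.05). Of 19 regulators of ribosomal protein synthesis, 1 was called higher and 0 lower, and 2 had an unadjusted p under 0.05 (median -0.01).

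The largest of these changes was in Ddx56, an RNA helicase of the nucleolus needed for 60S assembly. It stood at 18.4, 15.8 and 24.6 FPKM in KO and at 7.29, 6.78 and 7.09 FPKM in WT, a rise of 1.33 on the log2 scale (limma adjusted p = 0.0135). Nop56, a core protein of the box C/D particles that guide methylation of ribosomal RNA, stood at 26.3, 26.2 and 25.8 FPKM in KO and at 16.7, 15.9 and 16.1 FPKM in WT (log2 fold change 0.65, limma adjusted p = 0.0182). Gnl2, a nucleolar GTPase of 60S maturation, stood at 19.93, 20.74 and 19.97 FPKM in KO and at 13.7, 14.3 and 13.8 FPKM in WT (log2 fold change 0.51, limma adjusted p = 0.0292). None of the 3 overlapped between the genotypes. They were named because limma called them on these same libraries, so the lack of overlap is not separate evidence.

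Eif4ebp1, the repressor of cap-dependent initiation that mTOR phosphorylates, stood at 57.4, 55.0 and 53.5 FPKM in KO and at 23.4, 24.2 and 32.7 FPKM in WT (log2 fold change 1.04, limma adjusted p = 0.0182). Eif2s2, the beta subunit of initiation factor eIF2, stood at 102, 92.0 and 78.8 FPKM in KO and at 56.9, 52.5 and 59.8 FPKM in WT (log2 fold change 0.67, limma adjusted p = 0.0294). Eif3c, a core subunit of initiation factor eIF3, stood at 81.0, 59.7 and 66.7 FPKM in KO and at 44.9, 44.0 and 45.3 FPKM in WT (log2 fold change 0.61, limma adjusted p = 0.0447). All 3 rose without overlap, which again is not evidence apart from the call. Larp1 and Mtor, named for their role after their values were seen, were not called. Larp1 stood at 11.6, 14.0 and 12.3 FPKM in KO and at 13.6, 14.9 and 16.0 FPKM in WT (limma adjusted p = 0.348). Mtor stood at 4.45, 5.69 and 5.74 FPKM in KO and at 5.70, 6.43 and 7.55 FPKM in WT (limma adjusted p = 0.367).

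Of the 6 genes called, each kept its direction with any 1 library left out, but each lost the call without some library. Ddx56 had an adjusted p of 0.0584 without KO replicate 1 and 0.0858 without WT replicate 2. Eif4ebp1 and Nop56 lost the call without KO replicate 1 (0.0666 and 0.0625), without KO replicate 3 (0.0724 for both) and without WT replicate 2 (0.0906 for both). Eif2s2, Eif3c and Gnl2 lost it without any 1 of the 6 libraries, with adjusted p of 0.0535 to 0.168.

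Many introns of ribosomal protein genes carry small nucleolar RNAs, which guide modification of ribosomal RNA. RefSeq on GRCm38.p6 places 59 snoRNAs inside 30 of the members, and 33 of these are in the FPKM table by symbol. Of the 33, 24 were listed at 0 in every library and 9 were above 0 in at least 1. The most abundant, Snord15b inside Rps3, stood at 6261, 4865 and 5295 FPKM in KO and at 5832, 4293 and 4220 FPKM in WT, which overlapped. Its host Rps3, a 40S protein gene, stood at 132, 115 and 128 FPKM in KO and at 108, 118 and 121 FPKM in WT (limma adjusted p = 0.601). For genes this short, FPKM divides by a small length, so the level of Snord15b and that of Rps3 cannot be compared as amounts of RNA. Snora7a, inside Rpl32, stood at 1738, 2634 and 1549 FPKM in KO and at 1670, 1381 and 1942 FPKM in WT, which overlapped while Rpl32 did not.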

How the data were processed

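The deposited values are FPKM per gene and library. Per the submitters' processing notes the tools were TopHat2 and Cuffdiff, and the build was mm9; the sources used here give no versions, annotation or strandedness. The authors' deposited table also holds p-values and q-values of its own comparison. Of 14 samples, the 6 RNA-seq libraries were used, and the ChIP-seq, input and GRO-seq samples were not analysed here. FPKM was taken as log2(FPKM + 1), which understates changes of low genes, for 10501 genes with a mean of at least 1 FPKM. These were fitted with limma 3.58.1 in R 4.3.3 (mean-variance trend, two-sided, Benjamini-Hochberg, called at an adjusted p under 0.05). On simulated data for these 10501 genes, with 50 genes changed per fold size, limma called 2% at 1.2-fold, 16% at 1.5-fold, 68% at 2-fold and 90% at 4-fold, with 4 false calls. Only relative depth is known, so no counting interval is given.

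The rule for members uses symbols alone, but the set and the lists were chosen with earlier results of these data known, so no p over the set is given. Members were named if called by either method, if among the 5 highest or 5 lowest in level, if among the 6 largest moderated t values in each direction, or by role; list genes if called by limma. A few genes that met these rules are counted but not reported by name or drawn singly here. Alternatives covered pseudocount, filters, scaling, model, threshold, a replicate block and leaving out libraries.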

Additional observations from a re-analysis of the deposited data

How the results depend on the processing

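Limma called 0 members higher and 0 lower in KO under each of 19 refits except a threshold of 0.1, under which 1 member, Rps2, was called higher. The authors' q-value under 0.05 also gave 1 member called higher, and a q-value under 0.1 gave 5, of which 4 were higher. The median log2 ratio over members ran from 0.06 to 0.17, and 53 to 64 members were higher in KO. The KO minus WT difference in the share of the FPKM sum, 0.215 percentage points, was 0.0493 without WT replicate 1, 0.0532 without KO replicate 1 and 0.440 without WT replicate 3. Members at an unadjusted p under 0.05 numbered 7 in all, 28 without WT replicate 3 and 2 to 10 without any other 1 library, while 14.2% to 19.9% of all genes passed in those refits. Leaving out KO replicate 1 and WT replicate 3 together, chosen after seeing the data, gave 27 such members (33.3%, against 18.4% of all genes) and a median of 0.15.

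Of 608 log2 fold changes of 32 named members under the alternatives, 31 turned sign, in 14 members, none of them called. For Rps6 the value was -0.0059 under upper quartile scaling and -0.0099 under scaling to the FPKM sum. Over the fits that leave out libraries, values ran from -0.045 to 0.058 for Rpl11, -0.064 to 0.042 for Rpl22, -0.11 to 0.0041 for Rpl23a, -1.85 to 1.07 for Rpl26 and -1.56 to 0.086 for Rpl30. They ran from -0.047 to 0.25 for Rpl39, -0.071 to 0.12 for Rpl5, -0.042 to 0.24 for Rpl7, -0.51 to 0.35 for Rplp1 and -0.28 to 0.63 for Rplp2. They ran from -0.35 to 0.017 for Rps21, -0.51 to 0.43 for Rps27, -0.12 to 0.14 for Rps27a, -0.11 to 0.13 for Rps6 and -0.27 to 0.31 for Fau. The cause was not tested.

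Same-numbered KO and WT libraries deviated together with correlations of 0.0370, 0.0524 and 0.0467 across genes, too weak to take the numbers as pairs, though each KO library correlated best with its own number. With the replicate number as a block, 0 members were called, and 36 of all genes were called against 383 without it. The 6 list genes called had adjusted p of 0.0514 to 0.0891 under the block. Calls over all genes also fell to between 19 and 208 with 1 library left out.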

Other observations

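Rps2 and Rpl3l, which stood on opposite sides of WT in KO muscle, lie close together on mouse chromosome 17 in RefSeq, with Ndufb10 between them. Their neighbours were read after this was seen. Gfer, a sulfhydryl oxidase gene, stood at 19.7, 22.1 and 19.0 FPKM in KO and at 12.8, 15.3 and 15.8 FPKM in WT (limma adjusted p = 0.0914). Tbl3, a nucleolar protein gene that lies between Gfer and Rps2, stood at 6.17, 5.81 and 7.99 FPKM in KO and at 4.56, 5.65 and 9.33 FPKM in WT (limma adjusted p = 0.915). Msrb1, a methionine sulfoxide reductase gene next to Rpl3l, stood at 158, 166 and 146 FPKM in KO and at 109, 140 and 93.8 FPKM in WT (limma adjusted p = 0.151, q-value 0.033 in the authors' deposited table). Ndufb10, a respiratory complex I gene, stood at 371, 348 and 398 FPKM in KO and at 341, 304 and 380 FPKM in WT (limma adjusted p = 0.601). The KO libraries lay above the WT libraries for Gfer, Rps2 and Msrb1, below them for Rpl3l, and overlapped them for Tbl3 and Ndufb10. Over all genes tested, 14.2% lay above in this way and 11.9% below. Rps2 and Rpl3l were the reason for reading this region, so they do not count as finds within it. Limma called none of these 6 genes. Noxo1 and Rnf151, which also lie between Gfer and Rps2, had means below 1 FPKM and were not in the fit.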
